A study of Mus musculus with 6 samples.

Results

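This report describes a small set of inhibitory neurons, the nuclei that carried both Kit and Tfap2b, in single-nucleus RNA sequencing of the mouse pons and medulla. The members were chosen by their own UMIs (unique molecular identifiers, which count captured RNA molecules). A member had at least 500 detected genes, at most 5% mitochondrial UMIs, at least 1 UMI of Kit, at least 1 of Tfap2b and at least 1 of Gad1, Gad2 or Slc32a1. It had 0 UMIs of Slc6a5 and of Slc17a6, at most 1 UMI of Gabra6 and Fat2 together, and at most 1 of Mog and Mag together. The rule found 107 nuclei among 40139 kept nuclei, or 0.267% of them, and 1.93% of the GABA nuclei. The members held 595226 UMIs in all, with a median of 4677 UMIs and 2139 genes per nucleus.

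The study set 3 libraries from mice under chronic intermittent hypoxia (CIH) beside 3 from mice kept in room air (normoxia). All mice were wild-type C57BL6/J males, treated from postnatal day 22 to day 43. In each CIH cycle nitrogen was let in for 60 seconds, which took oxygen down to between 4.5 and 5%, and air then brought it back to 21% within at most 5 minutes. The mice received 80 cycles a day over 8 hours for 21 days. Nuclei from frozen tissue were stained with Hoechst, sorted, and sequenced from the 3' end on the 10x Genomics platform. The number of mice behind each library is not stated in the labels, so p-values measure only the spread between these libraries. The libraries are called CIH 1 to 3 and normoxia 1 to 3 here.

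Kit is the receptor for stem cell factor, and Tfap2b encodes a transcription factor of the AP-2 family. In the cerebellar cortex both mark molecular layer interneurons, the basket and stellate cells that inhibit Purkinje cells through GABA. These interneurons also carry Ntn1, a secreted guidance cue, Rora, a nuclear receptor of cerebellar neurons, Itpr1, a receptor that releases calcium from intracellular stores, and Shisa6, an auxiliary subunit of AMPA receptors. Adult mouse molecular layer interneurons fall into a type with Sorcs3 and Ptprk and a type with Nxph1 and Cdh22.

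Members were compared with 3 other classes cut from the same libraries. Other GABA nuclei met the same limits but lacked Kit or Tfap2b (3566 nuclei). Glycinergic nuclei carried the glycine transporter Slc6a5 beside a GABA gene (1867 nuclei). Granule nuclei carried at least 2 UMIs of Gabra6 and Fat2, which mark cerebellar granule neurons, and no GABA gene (2627 nuclei). Median UMIs per nucleus were 4677 in members, 3909 in other GABA nuclei, 8144 in glycinergic nuclei and 2582 in granule nuclei. Levels below are CPM, the summed UMIs of a gene in a class scaled to counts per 1e6 summed UMIs.

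A pair of libraries shared cell barcodes. CIH 1 and normoxia 2 had 1563 barcodes in common, whereas the other 14 pairs of libraries had 3 to 38. At these barcodes normoxia 2 held a median of 12.6% of the UMIs of CIH 1, and it held fewer in 1558 of 1563. In normoxia 2 the shared barcodes made up 1163 of 6615 kept nuclei, 135 other GABA nuclei and 29 granule nuclei. None of the 12 members of normoxia 2 was at a shared barcode, while 22 of the 30 members of CIH 1 had their barcode in normoxia 2, with 523 to 2296 UMIs there. Leaving out the shared barcodes means, here and below, leaving them out of normoxia 2 only, and the nuclei of CIH 1 were kept. The members' own sums are therefore the same with and without that step. Shares that rest on the other nuclei of normoxia 2 are given both ways.

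The members numbered 30, 33 and 14 in CIH 1, 2 and 3 and 10, 12 and 8 in normoxia 1, 2 and 3. Their summed UMIs were 185555, 170219 and 67297 under CIH and 44158, 57854 and 70143 under normoxia, in that order of libraries. Normoxia 3 had the fewest members and the deepest, with a median of 7796 UMIs against 3453 to 5500 in the other 5 libraries. None of the 107 was among the nuclei with the highest doublet scores.

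Most members sat near the edge of the rule. Of the 107, 23 had 1 UMI each of Kit and Tfap2b, 42 had exactly 1 UMI of one of them, and 42 had at least 2 of both. The highest counts in 1 nucleus were 11 for Kit and 9 for Tfap2b. Just outside the rule, 128 nuclei met every limit except Kit and 353 every limit except Tfap2b. A further 21 had no GABA gene, 23 had an Slc6a5 UMI, 10 an Slc17a6 UMI, 9 too many UMIs of Gabra6 and Fat2, and 13 too many of Mog and Mag. Rora, which the rule did not use, took a median of 1.60% of the UMIs of members with 1 UMI of each gene and 2.01% of members with 2 or more of each. It took 0.170% in nuclei that lacked only Kit and 0.200% in nuclei that lacked only Tfap2b.

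The label was checked against its 6 given markers. The genes lie on mm10 (GENCODE M21) at chr5:75574916-75656722 (Kit), chr1:19208914-19238576 (Tfap2b), chr11:68209364-68400823 (Ntn1), chr6:108213096-108551109 (Itpr1), chr9:68653786-69388246 (Rora) and chr11:66211725-66525964 (Shisa6). Kit and Tfap2b chose the members, so their levels are given only as a description. Kit stood at 512, 558 and 416 CPM in CIH 1, 2 and 3 and 679, 588 and 185 CPM in normoxia 1, 2 and 3. Tfap2b stood at 334, 417 and 312 CPM in CIH 1, 2 and 3 and 453, 346 and 328 CPM in normoxia 1, 2 and 3. Kit was lowest in normoxia 3, and the other 5 libraries lay at 416 CPM or more.

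Among the 4 markers outside the rule, Rora, Ntn1 and Shisa6 were higher in members than in other GABA nuclei in every library. Rora was at 13085, 21989 and 13151 CPM in CIH 1, 2 and 3 and 16509, 17527 and 3607 CPM in normoxia 1, 2 and 3, against 2299 CPM in other GABA nuclei pooled. Ntn1 was at 377, 569.9 and 312 CPM in CIH 1, 2 and 3 and 385, 570.4 and 99.8 CPM in normoxia 1, 2 and 3, against 44.8 CPM. For both genes normoxia 3 was the lowest library and stood far below the rest. Shisa6 was at 911, 1134 and 505 CPM in CIH 1, 2 and 3 and 679, 691 and 456 CPM in normoxia 1, 2 and 3, against 174 CPM. Itpr1 differed less, at 186 CPM in members and 131 CPM in other GABA nuclei, and it was the higher of both in 4 of 6 libraries. Detection after thinning every nucleus to 2000 UMIs gave the same order. Rora was seen in 98.0% of 102 members and 80.2% of 2713 other GABA nuclei, Shisa6 in 76.5% and 22.7%, Ntn1 in 48.0% and 7.27%, and Itpr1 in 22.5% and 13.6%. In granule nuclei Rora was seen in 96.4%, about as often as in members, and Itpr1 in 12.2%, whereas Ntn1 was seen in 0.739% and Shisa6 in 2.73%. No test was made of members against other classes, because the rule that chose the members fixed part of the difference.

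The genes that set the members apart most, by the ratio of CPM to other GABA nuclei among genes at 20 CPM or more in every library, began with the rule's own Tfap2b (31.3-fold) and Kit (13.4-fold). Gldc, which encodes the glycine decarboxylase of the glycine cleavage system, followed at 13.4-fold (183 against 13.7 CPM). Chst9, a carbohydrate sulfotransferase, was 11.1-fold higher, and Homer3, a postsynaptic scaffold that binds metabotropic glutamate receptors, 11.0-fold. Cnpy1, a gene of the midbrain and hindbrain border, was 11.0-fold higher and stood at a like level in granule nuclei (186 and 193 CPM). Further down the 20 were Dnah11, Dusp10, Ntn1 at 9.18-fold, Pparg, Megf10, Shc4, Cnr1, Socs2, Adamts2, Rora at 6.62-fold and Lamb1, plus 3 predicted genes. Cnr1, the CB1 cannabinoid receptor found on basket cell terminals, was at 232 CPM in members and 33.1 CPM in other GABA nuclei.

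**Figure D1:**
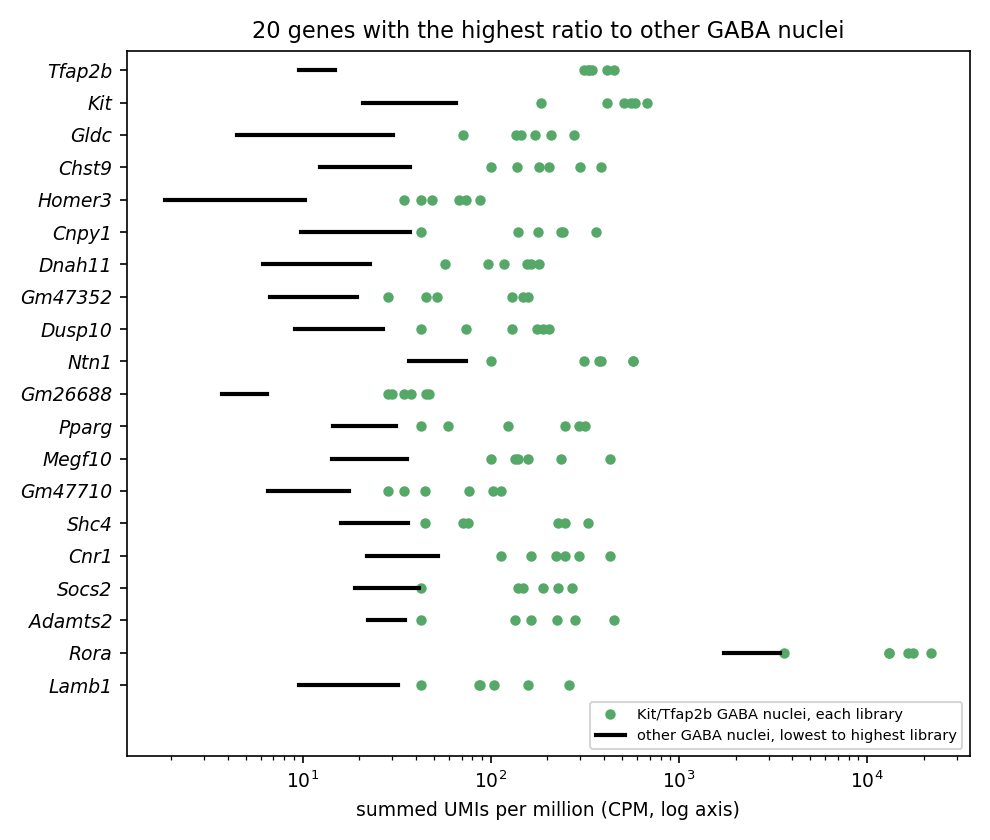
CPM (x axis, log scale) for the 20 genes with the highest ratio of members to other GABA nuclei. Green points are the members of each of 6 libraries, and black lines span the lowest to the highest library of other GABA nuclei; the lowest green point of most genes is normoxia 3, at 3607 CPM for Rora.

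The wider list of 20 molecular layer interneuron markers had UMIs for all 20 in the members. Leaving out the genes of the rule, its summed level was 29921 CPM in members, 9979 CPM in other GABA nuclei, 8692 CPM in glycinergic nuclei and 7081 CPM in granule nuclei. Rora alone made up 15208 CPM of the members' sum, so the sum largely repeats the Rora values above. By library the members' sum was 27760 to 37646 CPM under CIH and 31478, 33325 and 12446 CPM in normoxia 1, 2 and 3. Tfap2a, the AP-2 paralog, was at 45.4 CPM against 5.86 CPM, Pvalb, the calcium buffer parvalbumin, at 108 against 26.1 CPM, and Prkcd, a protein kinase C, at 82.3 against 14.1 CPM. Unc5c, a netrin receptor, stood at 3263 against 766 CPM. Unc5c was picked after its values were seen.

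Markers of other cell types were then summed over the members. Ppp1r17, a defining Purkinje cell gene, had 0 UMIs, which allows up to 5.04 CPM, and Pcp2 stood at 31.9 CPM. The summed level of the 10 Purkinje markers was 334 CPM in members and 234 CPM in other GABA nuclei. It was 728 CPM in CIH 1 and 86.4 to 228 CPM in the other 5 libraries, and without CIH 1 the order turned, at 156 CPM in members and 230.2 CPM in other GABA nuclei. Granule markers summed to 625 CPM outside the rule's genes, against 4630 CPM in granule nuclei and 588 CPM in other GABA nuclei. Summed endothelial markers stood at 8.40 CPM, mural markers at 6.72 CPM and fibroblast markers at 16.8 CPM, with Cldn5, Flt1, Pdgfrb, Kcnj8, Acta2, Col1a2 and Lum at 0. Some lists stood above other GABA nuclei. The 5 markers of unipolar brush cells, excitatory interneurons of the cerebellum and cochlear nuclei, summed to 1730.4 CPM against 738 CPM, with 1 UMI of their defining gene Eomes and with Plcb4, a phospholipase that granule nuclei also carry, at 494 against 355 CPM. Golgi and Purkinje layer interneuron markers summed to 1838 against 1352 CPM, of which Nxph1 alone made up 1709 and 1091 CPM. Oligodendrocyte precursor markers summed to 111 against 83.2 CPM, and without normoxia 3 to 89.5 against 99.7 CPM.

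The 4 markers of a GABA class with Sox2ot were lower in members, with a sum of 38.6 CPM against 405 CPM in other GABA nuclei and Gata2 at 0. Sox2ot, a long noncoding RNA, was at 25.2 CPM against 378 CPM. Ebf1 stood at 37.0 against 427 CPM, and Meis2, a homeobox gene, at 82.3 against 308 CPM, both named after their values were seen. Meis2 was uneven: normoxia 3 held 513 CPM, above the level in other GABA nuclei, and the other 5 libraries 10.8 to 67.9 CPM.

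Hox genes give the head-to-tail address of hindbrain neurons and are largely silent in the cerebellum. At 2000 UMIs a Hox UMI was found in 3 of 102 members, or 2.94% (95% exact Clopper-Pearson interval 0.611 to 8.36%). The share was 18.6% (17.2 to 20.1%) in other GABA nuclei, 26.0% (24.0 to 28.1%) in glycinergic nuclei and 3.70% (2.86 to 4.69%) in granule nuclei. Without thinning the shares were 6.54%, 27.8%, 58.5% and 6.01% in the same order. The intervals of members and granule nuclei overlapped, so no Hox expression is read from the members' share. Of the 10 Hox UMIs in all members, 6 lay in 3 of the low-Rora nuclei described next. Intervals cover counting error only.

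The members were not uniform. The share of a nucleus' UMIs that came from Rora ran from 0 to 4.29%, with a median of 1.91%. In 78 of 107 members it was at least 1%, and in 23 it was under 0.5%. The cut at 0.5% was set after the values were seen, and 7 members lay between 0.4 and 0.6%. The 23 nuclei with little Rora numbered 9, 4 and 4 in CIH 1, 2 and 3 and 0, 2 and 4 in normoxia 1, 2 and 3. They were deeper than the others (median 7813 against 4061 UMIs) and took 43.0, 16.1 and 41.8% of the members' UMIs in CIH 1, 2 and 3 and 0, 25.4 and 72.6% in normoxia 1, 2 and 3. Normoxia 3 had the largest such part.

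**Figure D2:**
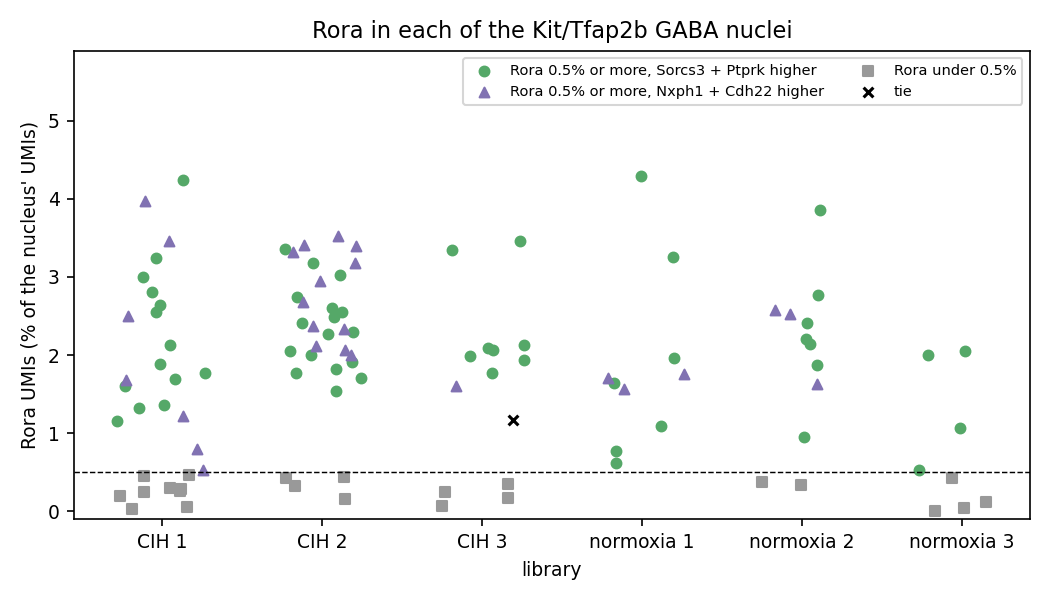
Rora UMIs as a percentage of all UMIs (y axis) in each member nucleus, by library (x axis, with random sideways spread). The dashed line marks 0.5%: 23 nuclei lie under it, and above it green circles and purple triangles show nuclei with more Sorcs3 and Ptprk or more Nxph1 and Cdh22.

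Low-Rora nuclei held less of several other interneuron genes as well. Ntn1 was at 84.6 CPM in them and 578 CPM in the other 84 members, Cnpy1 at 24.9 against 269 CPM, Gldc at 14.9 against 269 CPM, and Pvalb at 4.98 against 159.8 CPM. Shisa6 stood at 309 against 1106 CPM. For both given markers, Ntn1 and Shisa6, the low-Rora nuclei still lay above other GABA nuclei (44.8 and 174 CPM). Nucleus by nucleus the markers followed the cut only in part: 4 of the 23 low-Rora nuclei carried UMIs of both Ntn1 and Shisa6 and 13 of neither, and among the 84 others 64 carried both and 5 neither. In the 4 members of normoxia 3 with Rora at 0.5% or more, Ntn1 stood at 156 CPM, from 3 UMIs, against 385 to 764 CPM in such members of the other 5 libraries. Shisa6 there stood at 727 CPM, within the range of the others (679 to 1330 CPM). Meis2 went the other way in the low-Rora nuclei, at 229 against 7.61 CPM. The 23 are therefore called here only by their low Rora. The deepest member was in normoxia 3 and held 23844 UMIs, 34.0% of that library's sum, with 0 Rora UMIs. It carried 19 UMIs of Slc6a2, the noradrenaline transporter, 24 of Slc18a2, the vesicular monoamine transporter, 6 of Dbh, which makes noradrenaline, and 2 of Th. All UMIs of Slc6a2, Dbh and Th among the 107 members came from this nucleus, which had 2 UMIs of Gad2 and 0 of Gad1.

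The 84 members with Rora at 0.5% or more were divided by which marker pair led. This is a cut on UMI counts, and its sides are called types here only for short. In 57 the UMIs of Sorcs3, a sorting receptor, and Ptprk, a receptor phosphatase, outnumbered those of Nxph1, a secreted neurexin ligand, and Cdh22, a cadherin, in 26 the reverse held, and 1 was tied. Only 16 of the 84 carried UMIs of both pairs, 67 carried a single pair and 1 neither. In the first type Sorcs3 was at 2280.4 CPM and Nxph1 at 47.8 CPM, and in the second Sorcs3 was at 7.13 CPM and Nxph1 at 4413 CPM. These 4 genes made the division and are no finding. Kit and Tfap2b, which were not used in it beyond membership, were alike in the types, at 629 and 649 CPM for Kit and 422 and 428 CPM for Tfap2b.

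**Figure D3:**
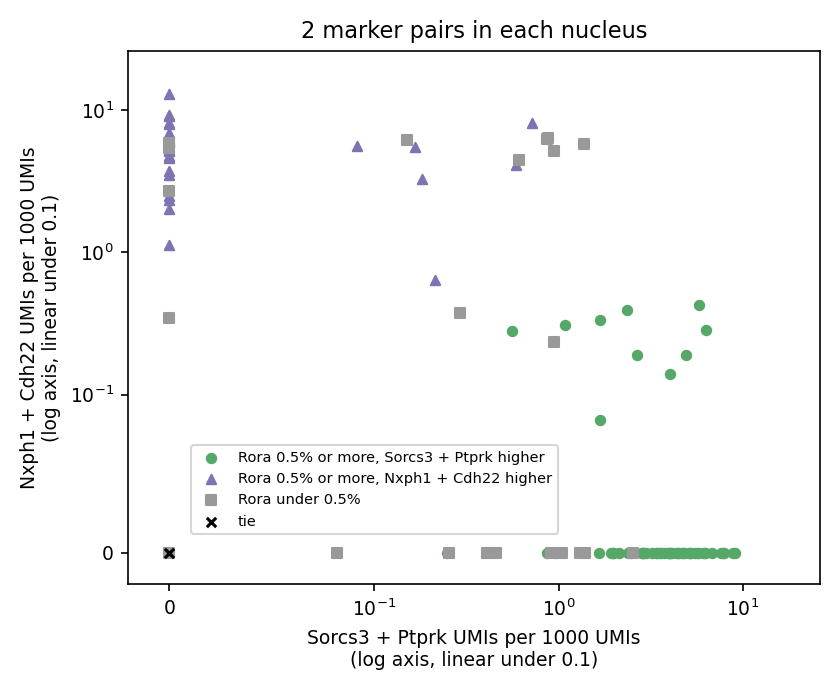
UMIs of Sorcs3 and Ptprk (x axis) against UMIs of Nxph1 and Cdh22 (y axis), each per 1000 UMIs of the nucleus, for every member, on log axes that are linear under 0.1. Of the 84 nuclei with Rora at 0.5% or more, 67 lie on one axis, with only 1 pair detected.

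Many more genes followed the division, and these are listed by pooled ratio, with no test, for genes with at least 40 UMIs over both types. Nuclei of the Sorcs3/Ptprk type had 23.4-fold more Grid1, a delta glutamate receptor. They also held 26.4-fold more Adgrl3, an adhesion receptor of the latrophilin family, 21.3-fold more Kcnip4, a subunit of A-type potassium channels, and 17.6-fold more Adarb2, of the RNA-editing deaminase family. Dach1, a transcription cofactor, had 106 UMIs in the first type and 0 in the second, at least 19.7-fold higher when the second is set at 3 UMIs over the group. Grm8, a presynaptic glutamate receptor, had 198 UMIs and 1 UMI, and Chst9 134 and 4. Grid1, Adgrl3, Kcnip4, Adarb2, Dach1 and Chst9 were higher in the Sorcs3/Ptprk type in all 5 libraries that held both types, and Grm8 in 4 of 5.

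Nuclei of the Nxph1/Cdh22 type led in other genes. Grin2b and Grin3a, subunits of NMDA receptors, were 4.87-fold and 4.97-fold higher. Dpp6, another subunit of A-type potassium channels, stood at 6188 CPM against 1266 CPM, Ptprt, a receptor phosphatase, at 2624 against 326 CPM, and Cadm1, a synaptic adhesion molecule, at 2103 against 251 CPM. Each of these 5 was higher in the Nxph1/Cdh22 type in 5 of 5 libraries. Prkg1, a cGMP-dependent kinase, was 9.12-fold higher in the pool and higher in 4 of 5 libraries. Car8, which binds the IP3 receptor and is also a Purkinje marker, had 38 UMIs against 3, and was higher in 3 of 5 libraries.

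The first question of the design was whether the members took a different share of the nuclei under CIH. They made up 0.690% (95% interval 0.466 to 0.983%) of kept nuclei in CIH 1, 0.742% (0.511 to 1.04%) in CIH 2 and 0.132% (0.0719 to 0.221%) in CIH 3. In normoxia 1, 2 and 3 they made up 0.213% (0.102 to 0.391%), 0.181% (0.0938 to 0.317%) and 0.0852% (0.0368 to 0.168%). CIH 1 and CIH 2 stood above all other libraries, and CIH 3 lay within the range of the normoxia libraries. The means were 0.521% ± 0.338 (SD, n = 3) and 0.160% ± 0.0665 (SD, n = 3), a difference of 0.361 percentage points with an exact permutation p of 0.3 (two-sided, 20 assignments, 0.4 adjusted over 4 such comparisons). With 3 libraries a group the smallest p this test can give is 0.1. Without the shared barcodes normoxia 2 stood at 0.220% and the difference was 0.348 points (exact permutation p = 0.3).

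Granule nuclei moved with the members. They made up 13.6, 17.4 and 3.48% of kept nuclei in CIH 1, 2 and 3 and 5.26, 5.19 and 3.22% in normoxia 1, 2 and 3, so the same pair of libraries was high. The labelled tissue was the pons and medulla, and granule neurons belong to the cerebellum and cochlear nuclei. Per 100 granule nuclei there were 5.07, 4.27 and 3.78 members under CIH and 4.05, 3.50 and 2.65 under normoxia. On that scale the groups overlapped and all 6 libraries lay within 1.91-fold of each other, against 8.71-fold for the share of kept nuclei. Without the shared barcodes normoxia 2 had a granule share of 5.76% and 3.82 members per 100 granule nuclei. Over all 6 libraries the means were 4.37 and 3.40 members per 100 granule nuclei in CIH and normoxia (exact permutation p = 0.2). Among kept nuclei other than granule nuclei the members' share was 0.611% and 0.168% (exact permutation p = 0.3). How far the granule share accounts for the members' share was not tested. Over GABA nuclei only, the members' share was 5.84, 6.64 and 1.03% under CIH and 1.47, 1.28 and 0.516% in normoxia. That gave means of 4.50% ± 3.03 (SD, n = 3) and 1.09% ± 0.504 (SD, n = 3), and an exact permutation p of 0.3 (0.4 adjusted over the 4 comparisons). Without the shared barcodes normoxia 2 stood at 1.52%, and the difference was 3.33 points in place of 3.41.

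**Figure D4:**
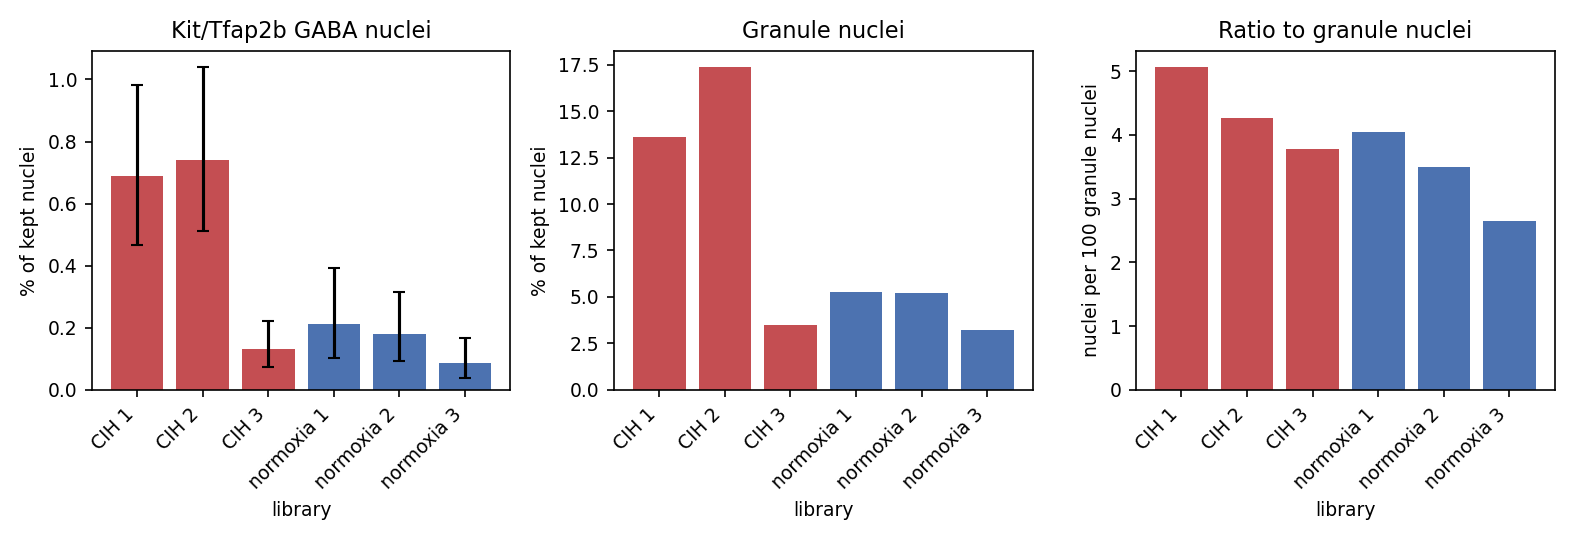
Members as a percentage of kept nuclei with 95% exact Clopper-Pearson intervals (left, bars from 0), granule nuclei as a percentage of kept nuclei (middle) and members per 100 granule nuclei (right), by library, CIH in red and normoxia in blue. The left and middle panels share their pair of high libraries, CIH 1 and CIH 2, and the right panel runs from 2.65 to 5.07.

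The lead of either marker pair was compared in the same way. This count ran over all members, low-Rora nuclei included, and so is not the mix of the types described above. Among members thinned to 2000 UMIs that showed any of the 4 genes, Nxph1 and Cdh22 led in 12 of 26, 14 of 30 and 3 of 13 nuclei in CIH 1, 2 and 3. They led in 3 of 10, 3 of 11 and 0 of 8 in normoxia 1, 2 and 3, the last of which allows a share of up to 37.5%. The means were 38.6% ± 13.5 (SD, n = 3) and 19.1% ± 16.6 (SD, n = 3), with overlapping groups and an exact permutation p of 0.3 (0.4 adjusted over the 4 comparisons). Without thinning the shares were 41.4, 45.5 and 23.1% under CIH and 30.0, 25.0 and 12.5% in normoxia. Members with Rora at 0.5% or more gave a difference of 9.69 points in place of 19.5. Among them Nxph1 and Cdh22 led in 7 of 19, 12 of 27 and 1 of 9 nuclei in CIH 1, 2 and 3. In normoxia 1, 2 and 3 they led in 3 of 10, 3 of 9 and 0 of 4, the last of which allows up to 75.0%. The share of members with a Hox UMI was 0, 3.23 and 7.14% under CIH and 0, 0 and 12.5% in normoxia (exact permutation p = 1), where each value above 0 was 1 nucleus. The values of 0, from 28, 10 and 11 nuclei, allow shares of up to 10.7, 30.0 and 27.3%.

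Gene levels in the members were then compared between CIH and normoxia. The test had been planned only where every library held at least 10 members, and normoxia 3 held 8, so the fit to all 6 libraries was added after the counts were seen. Of 32285 genes, 1255 passed the filter on low counts, and 0 of 1255 (0%) had an adjusted p under 0.05 by edgeR's quasi-likelihood test. At an unadjusted p under 0.05 there were 39 of 1255 genes, 17 higher and 22 lower in CIH. That is a smaller share than the 0.05 that the cut allows with no change. DESeq2 called 1 gene, the predicted Gm26871, lower in CIH, which is named after its value was seen and of whose 133 UMIs in members 71 came from the deepest nucleus of normoxia 3. The median log2 fold change over all tested genes was -0.03. The 3 CIH libraries lay wholly above the 3 normoxia libraries for 60 genes (4.78%) and wholly below for 62 (4.94%). Without normoxia 3, which brought every library to at least 10 members, 0 of 1418 genes were called.

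None of the 6 given markers passed the test. The log2 fold changes, each with adjusted p = 0.965 or above by edgeR, were 0.07 ± 0.43 (SE) for Kit, -0.07 ± 0.28 (SE) for Tfap2b, 0.29 ± 0.53 (SE) for Ntn1, 0.58 ± 0.41 (SE) for Itpr1, 0.36 ± 0.53 (SE) for Rora and 0.50 ± 0.36 (SE) for Shisa6. Without normoxia 3, the library with the largest part of low-Rora nuclei, the sign turned for 3 of them, with log2 fold changes of -0.30 for Kit, -0.14 for Ntn1 and -0.04 for Rora. Every member carries at least 1 UMI of Kit and of Tfap2b by the rule. Gad1, which makes GABA and is among the genes that could admit a nucleus, stood at 269, 399 and 416 CPM in CIH 1, 2 and 3 and 272, 277 and 99.8 CPM in normoxia 1, 2 and 3, with a log2 fold change of 0.76 ± 0.41 (SE) (edgeR adjusted p = 0.965).

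The genes of smallest p on the higher side are given as values, since none passed. Trim37, a ubiquitin ligase, stood at 172, 229 and 208 CPM in CIH 1, 2 and 3 and 90.6, 51.9 and 57.0 CPM in normoxia 1, 2 and 3. Its groups did not overlap, and its log2 fold change was 1.63 ± 0.38 (SE) (edgeR adjusted p = 0.965). Zfp423, a zinc finger transcription factor needed for cerebellar development, stood at 291, 505 and 208 CPM in CIH 1, 2 and 3 and 136, 156 and 85.5 CPM in normoxia 1, 2 and 3 (1.46 ± 0.42 (SE), edgeR adjusted p = 0.965). Lhfpl3 stood at 711, 664 and 1129 CPM in CIH 1, 2 and 3 and 453, 311 and 356 CPM in normoxia 1, 2 and 3 (1.15 ± 0.33 (SE), edgeR adjusted p = 0.965). Synpr, a synaptic vesicle protein, stood at 199, 241 and 386 CPM in CIH 1, 2 and 3 and 113, 121 and 28.5 CPM in normoxia 1, 2 and 3 (1.65 ± 0.51 (SE), edgeR adjusted p = 0.965). Each of these 4 genes had its 3 CIH libraries above all 3 normoxia libraries. The normoxia libraries held only 44158 to 70143 summed UMIs, so the normoxia levels of Trim37, Zfp423 and Synpr rest on a few UMIs per library. Chst9, Senp7, Usp15 and Sobp completed the 8, with log2 fold changes of 1.08 ± 0.37 (SE), 1.00 ± 0.38 (SE), 0.86 ± 0.33 (SE) and 0.88 ± 0.34 (SE) and adjusted p of 0.965.

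On the lower side Robo1, the receptor for Slit guidance cues, stood at 140.1, 182 and 357 CPM in CIH 1, 2 and 3 and 611, 398 and 1141 CPM in normoxia 1, 2 and 3. Its log2 fold change was -1.75 ± 0.50 (SE) (edgeR adjusted p = 0.965), and normoxia 3 was the highest library. Nkain2, which interacts with the sodium pump, stood at 744, 1081 and 594 CPM in CIH 1, 2 and 3 and 1291, 1694 and 2352 CPM in normoxia 1, 2 and 3 (-1.15 ± 0.35 (SE), edgeR adjusted p = 0.965). Klhl29 stood at 75.4, 76.4 and 163 CPM in CIH 1, 2 and 3 and 181, 242 and 342 CPM in normoxia 1, 2 and 3 (-1.45 ± 0.42 (SE), edgeR adjusted p = 0.965). These 3 genes were highest in normoxia 3, and all were lower in members than in other GABA nuclei (354 against 1429.8 CPM for Robo1). Tango2, Gpc6, Cmip, Usp32 and Mapt, the microtubule protein tau, had log2 fold changes of -1.04 ± 0.31 (SE), -1.09 ± 0.37 (SE), -0.96 ± 0.33 (SE), -0.93 ± 0.33 (SE) and -0.77 ± 0.28 (SE) and adjusted p of 0.965.

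**Figure D5:**
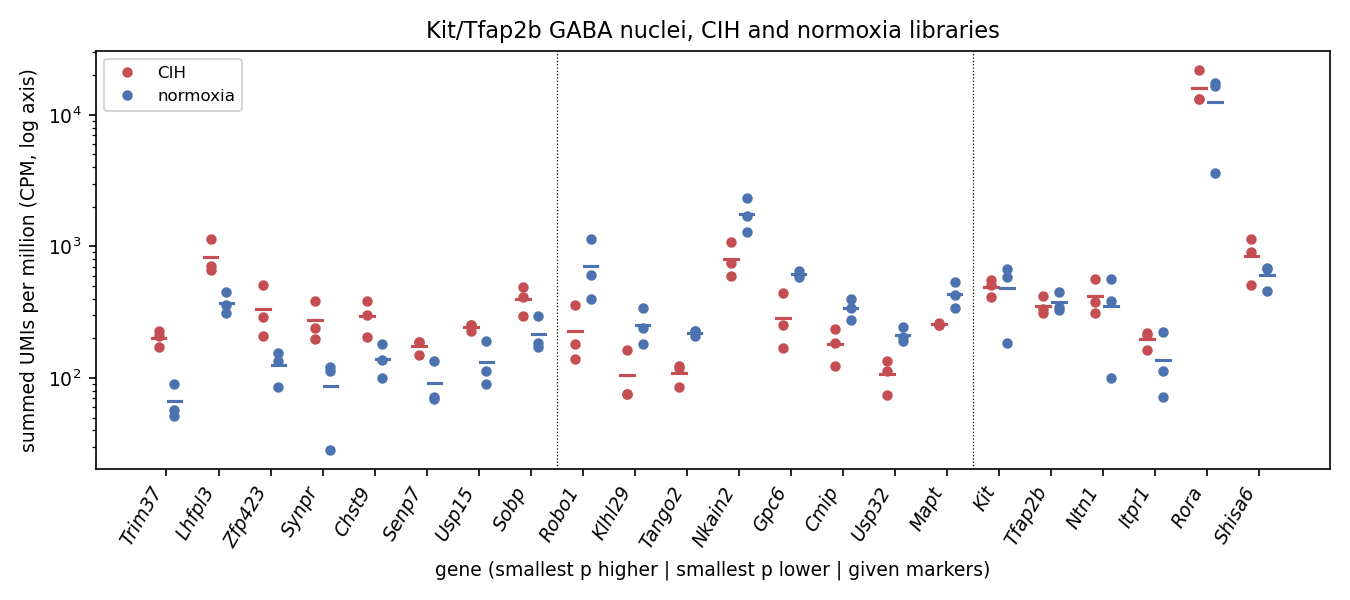
CPM in the members (y axis, log scale) for the 8 genes of smallest p higher in CIH, the 8 lower, and the 6 given markers. Points are libraries and bars group means; the 16 genes on the left do not overlap between groups, as 4.78% and 4.94% of tested genes do in either direction, and normoxia 3 is the low blue point of Rora at 3607 CPM.

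Functional lists are described by their counts, beside 0 calls and a median log2 fold change of -0.03 over the 1255 genes. Of 42 genes for glutamate receptors and their auxiliary subunits, 20 could be tested, with 12 positive and 8 negative values and a median of 0.21. Gria4, an AMPA receptor subunit, had the smallest p among them and stood at 2926, 4982 and 3195 CPM in CIH 1, 2 and 3 and 2038, 2748 and 1996 CPM in normoxia 1, 2 and 3 (0.71 ± 0.30 (SE), edgeR adjusted p = 0.965). Of 37 genes of netrin, slit and semaphorin guidance 17 were tested, 9 positive and 8 negative, with a median of 0.08. On the log2 scale Sema6d, a semaphorin, differed by -1.72 ± 0.70 (SE) and Unc5c by 0.71 ± 0.37 (SE), neither past the test. Of 38 genes of calcium stores and IP3 signalling 15 were tested, 7 positive and 8 negative (median -0.12), with Plcb1, a phospholipase, at 0.74 ± 0.44 (SE). Of 16 genes of GABA synthesis, release and uptake 5 outside the rule were tested, 3 positive and 2 negative (median 0.27), and of 15 GABA receptor genes 7 were tested, with Gabrb1 at -1.11 ± 0.58 (SE). Each adjusted p here was at least 0.965.

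Channel and synapse genes gave no call either. Of 36 potassium channel genes 17 were tested, 9 positive and 8 negative (median 0.13), with Kcnq5 at -1.16 ± 0.47 (SE) on the log2 scale. Of 26 sodium, calcium and pacemaker channel genes 14 were tested, 6 positive and 8 negative (median -0.12), with Cacnb4, a calcium channel subunit, at 0.67 ± 0.27 (SE). Of 30 vesicle release genes 15 were tested, 5 positive and 10 negative (median -0.04), and of 52 synaptic adhesion genes 43, 24 positive and 19 negative (median 0.11), with Tenm1 at -0.69 ± 0.30 (SE) and Adgrl3 at 0.67 ± 0.34 (SE). The summed level of the adhesion genes was 71407 to 76229 CPM under CIH and 61966 to 64541 CPM in normoxia. It was the one sum among 18 functional lists whose groups did not overlap, and the sums were not tested. Of its 43 tested genes 3 lay wholly higher and 2 wholly lower in CIH, beside 4.78% and 4.94% of all 1255 tested genes. Stress and hypoxia genes were mostly too sparse. Of 34 genes of the hypoxia-inducible factor pathway 29 had a UMI and 1 could be tested, Pfkp at -0.29 ± 0.28 (SE). Their summed level was 1129 to 1304 CPM across the CIH libraries and 1141 to 1469 CPM across those of normoxia. No activity-induced gene of 21 and no chaperone gene of 23 could be tested. Their sums overlapped between the groups, at 226 to 386 and 228 to 709 CPM for the activity-induced genes and at 911 to 1204 and 830 to 1155 CPM for the chaperones.

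RNA of other cells was set beside these values. All 9 oligodendrocyte markers had a UMI in members, and outside the rule's Mog and Mag they summed to 356 to 609 CPM under CIH and 566 to 1454 CPM in normoxia. Astrocyte markers, 7 of 8 with a UMI, summed to 86.2 to 267 and 57.0 to 519 CPM. Granule markers summed to 623 to 1025 CPM under CIH and 314 to 605 CPM in normoxia, with no overlap, and their part in the other values was not tested. Other marker sums were also higher in CIH without overlap. The list with Sorcs3 and Ptprk stood at 2279 to 3254 against 2067 to 2242 CPM, and the sparse endothelial list at 5.39 to 44.6 against 0 CPM. The marker sums were not tested. Leaving out genes at least 4 times higher in granule nuclei left 1240 genes, of which 0 were called.

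The CIH effect in members was compared with that in other GABA nuclei of the same libraries, as a difference of log2 CPM tested with limma. Of 1255 genes 0 (0%) differed at an adjusted p under 0.05, and 48 at an unadjusted p under 0.05. The 48 are a smaller share than the 0.05 that the cut allows with no change. The smallest p belonged to Trim37, with a difference of 1.40 ± 0.31 (SE) (adjusted p = 0.97 by limma). The next named genes were mt-Atp6 and mt-Co3, which the mitochondrial genome encodes, Rai1, Fth1, an iron storage protein, and Senp7, with differences of -1.21 ± 0.28 (SE), -1.26 ± 0.38 (SE), -0.87 ± 0.28 (SE), -1.02 ± 0.33 (SE) and 1.04 ± 0.34 (SE). Mitochondrially encoded RNAs summed to 674 to 1843 CPM under CIH and 599 to 1631 CPM in normoxia in the members.

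A wider set dropped the demand for a Kit UMI. These nuclei numbered 44, 50 and 38 in CIH 1, 2 and 3 and 25, 38 and 40 in normoxia 1, 2 and 3, and 4674 genes could be tested. edgeR called 3 of 4674 (0.0642%). Meis2, lower in CIH, was at 128, 166 and 129 CPM in CIH 1, 2 and 3 and 487, 450.1 and 437 CPM in normoxia 1, 2 and 3 (log2 fold change -1.69 ± 0.22 (SE), adjusted p = 0.00903). The other 2, named after their values were seen, are predicted genes. Gm47352 was at 24.4, 19.2 and 18.7 CPM in normoxia 1, 2 and 3 and 90.2, 117 and 84.3 CPM in CIH 1, 2 and 3 (adjusted p = 0.0387 by edgeR). 4930555F03Rik was lower in CIH (log2 fold change -1.58 ± 0.26 (SE), edgeR adjusted p = 0.0387). For all 3 genes the groups did not overlap, as held for 6.55% of the 4674 genes on the higher side and 6.23% on the lower side. Gm47352 is among the 20 genes that led the members over other GABA nuclei. Members proper made up 68.2, 66.0 and 36.8% of these nuclei under CIH and 40.0, 31.6 and 20.0% in normoxia. Meis2 was lower in members (82.3 CPM) than in the nuclei without Kit (429.6 CPM). Nuclei without Kit were also taken by themselves. They are part of the set in which the calls were made, so their values are no independent support. Meis2 stood there at 397, 401 and 158 CPM under CIH and 642, 609 and 409.9 CPM in normoxia. Its groups did not overlap, but CIH 2 (45 UMIs) and normoxia 3 (81 UMIs) lay close together. The groups did not overlap for 4930555F03Rik. The share of all genes without overlap is not given for these nuclei. They did overlap for Gm47352, at 0, 53.5 and 57.0 CPM (0, 6 and 9 UMIs) under CIH and 16.7, 6.62 and 15.2 CPM in normoxia. Gm47352 was at 114 CPM in members and 25.6 CPM in the nuclei without Kit. How far the mix of nuclei set the calls was not tested. Leaving out 1 library in turn gave 0 calls (without normoxia 1) to 22 calls (without CIH 3), and Meis2 passed in 4 of these 6 fits, with an adjusted p of 0.0837 by edgeR without CIH 1 and 0.0528 without normoxia 1.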

How the data were processed

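The deposited matrices hold raw counts of UMIs per gene and barcode, made by the authors with Cell Ranger 6.1.2 per the file headers. The submitters' processing notes name Cell Ranger 3.1.0, Seurat 4.0 and mm10. Whether intronic reads were counted is not given in the sources used here. The 6 libraries held 4607 to 12032 barcodes and 26733243 to 46754345 UMIs.

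UMIs were summed over members per library and tested by edgeR 4.0.16 under R 4.3.3, with TMM scaling, its filterByExpr filter, the quasi-likelihood F test and a Benjamini-Hochberg threshold of 0.05. For the CIH effect in members against other GABA nuclei, limma 3.58.1 was run on log2 CPM with a prior count of 1. Both were tested on simulated data with large planted changes in the better covered genes. Their power for smaller changes was not tested. Shares were compared with exact permutation tests, and detection after thinning each nucleus to 2000 UMIs. Scrublet (scanpy 1.11.5) gave doublet scores, and no nucleus was removed by them in the main analysis. DESeq2 1.42.0 was an alternative.

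Members and gene lists were chosen with earlier results of these data known. Named genes were up to 8 of smallest p in each direction where fewer than 5 were called, the given markers, up to 4 per functional list, 6 for the difference between classes, and the 20 with the largest ratio to other GABA nuclei. Predicted genes were counted. CPM are of all summed UMIs, before scaling. Replicate libraries differed by more than sampling noise. Results for some genes of the lists are not reported here.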

Additional observations from a re-analysis of the deposited data

How the results depend on the processing

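No setting tried on the members alone made edgeR call a gene, except the removal of the filter on low counts. Without that filter 21 of 15720 genes were called, 4 higher and 17 lower in CIH, and the lower ones included Slc6a2 and Slc18a2, which were found mostly in the deepest nucleus of normoxia 3. DESeq2 called 1 gene, and the nuclei with Tfap2b but no demand on Kit gave 3, with 0 to 22 when a library was left out. No call was made with other size factors, with the median UMIs as a covariate, after the doublet or stricter quality filters, without the shared barcodes, in members with Rora at 0.5% or more (692 genes), or without any 1 library. With the replicate block 0 genes were called, in members and for the difference from other GABA nuclei alike. Deviations of log2 CPM from the group means were correlated between same-numbered libraries, at -0.16, 0.36 and 0.22. With 3 libraries a group these values cannot decide whether the numbers pair the libraries. The difference from other GABA nuclei gave 0 calls under every alternative that was run. The fits with at least 2 UMIs of Kit and of Tfap2b were not run, since they left as few as 2 nuclei in a library.

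Shares of kept and of GABA nuclei stayed higher in CIH under every alternative run. With CIH 3 left out the groups no longer overlapped, and the difference in the share of kept nuclei was 0.556 points (exact permutation p = 0.1, the smallest that 10 assignments allow). The Hox share difference of -0.71 points was -9.49 without thinning, -4.81 at 4000 UMIs and -3.56 under the stricter quality filter. It became 3.33 points in members with Rora at 0.5% or more and 0 in nuclei with 2 or more UMIs of both genes, and ran from -2.79 to 3.46 when a library was left out. The Nxph1/Cdh22 share difference of 19.5 points became -29.8 in nuclei with 2 or more UMIs of both genes. It also moved with the random draw of the thinning: normoxia 3 had a share of 0 in the main draw and 28.6% in another draw under the stricter quality filter. Most of the 22 named genes were chosen for their smallest p in these same data, so a kept sign is no independent support for them. Sizes could shrink with the sign kept. In the wider Tfap2b set the log2 fold change of Trim37 went from 1.63 to 0.43 and that of Lhfpl3 from 1.15 to 0.066. Over the 22 named genes, 356 of 364 alternative values kept their sign. The 8 others were Gpc6 at 0.19 and Tfap2b at 0.16 in the wider Tfap2b set, Tfap2b at 0.15 without the filter, and values with a library left out: Tfap2b from -0.17 to 0.074, with 0.012 without CIH 3, Kit from -0.30 to 0.38, Ntn1 from -0.14 to 0.90 and Rora from -0.045 to 0.70. The cause was not tested. Depth limits these results, since 1255 of 32285 genes had enough UMIs in 107 nuclei.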
